A study of Rattus norvegicus with 6 samples.

Results

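The PI3K-AKT-mTOR core genes are 8 genes, Pik3ca, Pik3cb, Pik3r1, Pik3r2, Akt1, Akt2, Gsk3b and Mtor, out of the 16581 genes that could be named on a rat expression array. They were chosen by symbol, with earlier results of these data known, and each gene was read through its brightest probe, by mean signal on the 6 arrays. The 8 genes have 16 of the 45598 probes of the array, 4 for Gsk3b, 3 each for Pik3ca and Pik3r1, 2 for Akt2 and 1 for each of the others. The cells were neonatal rat ventricular cardiomyocytes (NRVCs), the ventricular cells of Sprague-Dawley rats aged 1 to 2 days. Hearts of 8 to 10 animals were combined per preparation, preplated to remove attached non-muscle cells and grown on collagen-coated glass. The labels name a serum-free medium, whereas the methods of the study describe a short period in low serum before C3a, and which of them applied to these samples is not settled here. The control group was 3 samples in control medium, and the C3a group was 3 samples given recombinant C3a, the anaphylatoxin fragment of complement C3, at 0.5 µg/ml for 12 h. The labels do not say whether samples of a group came from separate preparations, so p-values measure only the spread between these samples.

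Class I PI3K is a lipid kinase made of a catalytic subunit, such as p110α (Pik3ca) or p110β (Pik3cb), held and inhibited by a regulatory subunit, such as p85α (Pik3r1) or p85β (Pik3r2). Its lipid product brings AKT (Akt1, Akt2) to the membrane, where AKT is activated and then phosphorylates GSK3β (Gsk3b) to switch it off and relieves the brake on mTOR (Mtor), the kinase that drives protein synthesis. In the heart, p110α and AKT1 are known for physiological growth, AKT2 for glucose metabolism and GSK3β as a restraint on hypertrophy. Not from the heart in particular, p110β is known for signals from G protein-coupled receptors. The C3a receptor is one of these, but no signal from it through p110β was measured here. These proteins are regulated largely by phosphorylation, which an array of RNA does not measure.

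The promoter sequences below belong to Pik3ca, Akt1 and Mtor, shown because they are the genes with a matched promoter that had the largest differences between groups. Each is the 250 bases before the transcription start in the RefSeq promoter table for GRCr8, 5′ to 3′ on the strand of the gene, and capitals mark matches to the motifs searched. A promoter was matched for 7 of the 8 members, all but Pik3cb. The windows are chr2:117147049-117147298 on the plus strand for Pik3ca, chr6:137552611-137552860 on the minus strand for Akt1 and chr5:164167735-164167984 on the plus strand for Mtor.
Pik3ca: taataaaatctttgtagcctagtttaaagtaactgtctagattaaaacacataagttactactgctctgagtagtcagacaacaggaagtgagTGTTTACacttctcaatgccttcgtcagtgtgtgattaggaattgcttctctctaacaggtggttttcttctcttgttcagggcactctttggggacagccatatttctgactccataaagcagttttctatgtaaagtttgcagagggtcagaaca
Akt1: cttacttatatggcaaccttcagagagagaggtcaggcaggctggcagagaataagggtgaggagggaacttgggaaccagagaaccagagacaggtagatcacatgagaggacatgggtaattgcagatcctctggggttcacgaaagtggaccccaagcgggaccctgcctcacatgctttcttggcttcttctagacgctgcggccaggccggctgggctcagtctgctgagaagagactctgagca
Mtor: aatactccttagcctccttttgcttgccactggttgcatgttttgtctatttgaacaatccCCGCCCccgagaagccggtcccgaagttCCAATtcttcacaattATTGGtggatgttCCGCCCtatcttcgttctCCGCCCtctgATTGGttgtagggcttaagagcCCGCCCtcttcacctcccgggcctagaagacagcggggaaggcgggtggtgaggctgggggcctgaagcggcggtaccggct
Both strands were searched for the GC box (GGGCGG), the CCAAT box (CCAAT), the TATA box (TATAAA), the E-box (CACGTG), the cAMP response element (TGACGTCA), the AP-1 element (TGANTCA), the EGR element (GCGGGGGCG) and the FOXO element (GTAAACA). The Mtor window held 4 GC boxes and 3 CCAAT boxes, which do not overlap, and these motifs occur in 30.5% and 34.0% of all 33469 promoter windows. The Pik3ca window held 1 FOXO element, found in 3.21% of all windows, and the Akt1 window held none of these motifs. Among the other members, Pik3r1 had 7 GC boxes and 1 CCAAT box, Pik3r2 had 2 GC boxes, Gsk3b had 1 E-box and Akt2 had 1 TATA box. GC content was 38.8% for Pik3ca, 54.8% for Akt1 and 56.8% for Mtor, against a median of 51.2% over all windows. These matches are a description of the letters in the windows, and the arrays measured no binding at them.

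Every sample had a 1-colour array to itself, and a level here is the log2 signal minus the 75th percentile on that array. Probes of different genes bind their targets differently, so levels are compared between arrays for one probe and never between probes. Control replicate 1 stands apart, with 38.6% of probes well above background against 53.7% to 57.3% on the other arrays, and the local background around its spots had a median of 47, where the rest had 23 or 24 intensity units. All arrays were on 1 slide, with the control arrays on one side and those of C3a on its other side, and side and treatment cannot be told apart. Cardiomyocyte markers were well above background on all 6 arrays for 9 of 9 genes, and the liver genes Alb and Apoa1 were not on any array. Markers of other cell types were also present, with 5 of 6 fibroblast, 4 of 5 endothelial, 2 of 3 smooth muscle and 2 of 5 macrophage genes well above background on all 6 arrays. The summed marker level, as log2, ranged from 12.21 to 12.59 in the controls and from 12.52 to 12.70 with C3a for cardiomyocytes. The ranges were 6.49 to 6.70 and 6.49 to 6.72 for fibroblasts, 5.02 to 5.49 and 5.37 to 5.72 for endothelial cells, 4.75 to 4.92 and 4.62 to 4.77 for smooth muscle, and 2.48 to 2.81 and 2.46 to 2.59 for macrophages. The part of cell composition in the results was not tested, and in such bulk RNA fewer cells of a type and less RNA per cell cannot be told apart.

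Do these genes differ in RNA level between cultures with and without C3a? All 8 were detected in the bulk RNA of the NRVC cultures, which does not show in which cells they were expressed. Of the 8, 6 were well above background on all 6 arrays, and Pik3cb and Mtor on all but control replicate 1. None of the 8 passed an adjusted p of 0.05 by limma, and neither did any of the 23438 probes tested (0.0%), where the smallest adjusted p was 0.705. The 8 differences ran from -0.52 for Akt1 to 0.23 for Pik3ca on the log2 scale, 4 above 0 and 4 below, with a median of 0.014 against 0.036 over all 10390 genes tested. At an unadjusted p under 0.05 limma named 3 of the 8, Pik3ca higher and Pik3cb and Mtor lower, where 5.35% of all genes tested were named (2.89% higher and 2.46% lower). The same 3 genes were those whose groups did not overlap, which held for 13.0% of all genes tested, 8.08% with C3a above and 4.88% with C3a below. The methods' t-test gave 1 of the 8, Pik3ca (4.93% of all genes tested), and 0 after Benjamini-Hochberg adjustment. Nothing is read from these shares, since the members were chosen with results known.

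**Figure D1:**
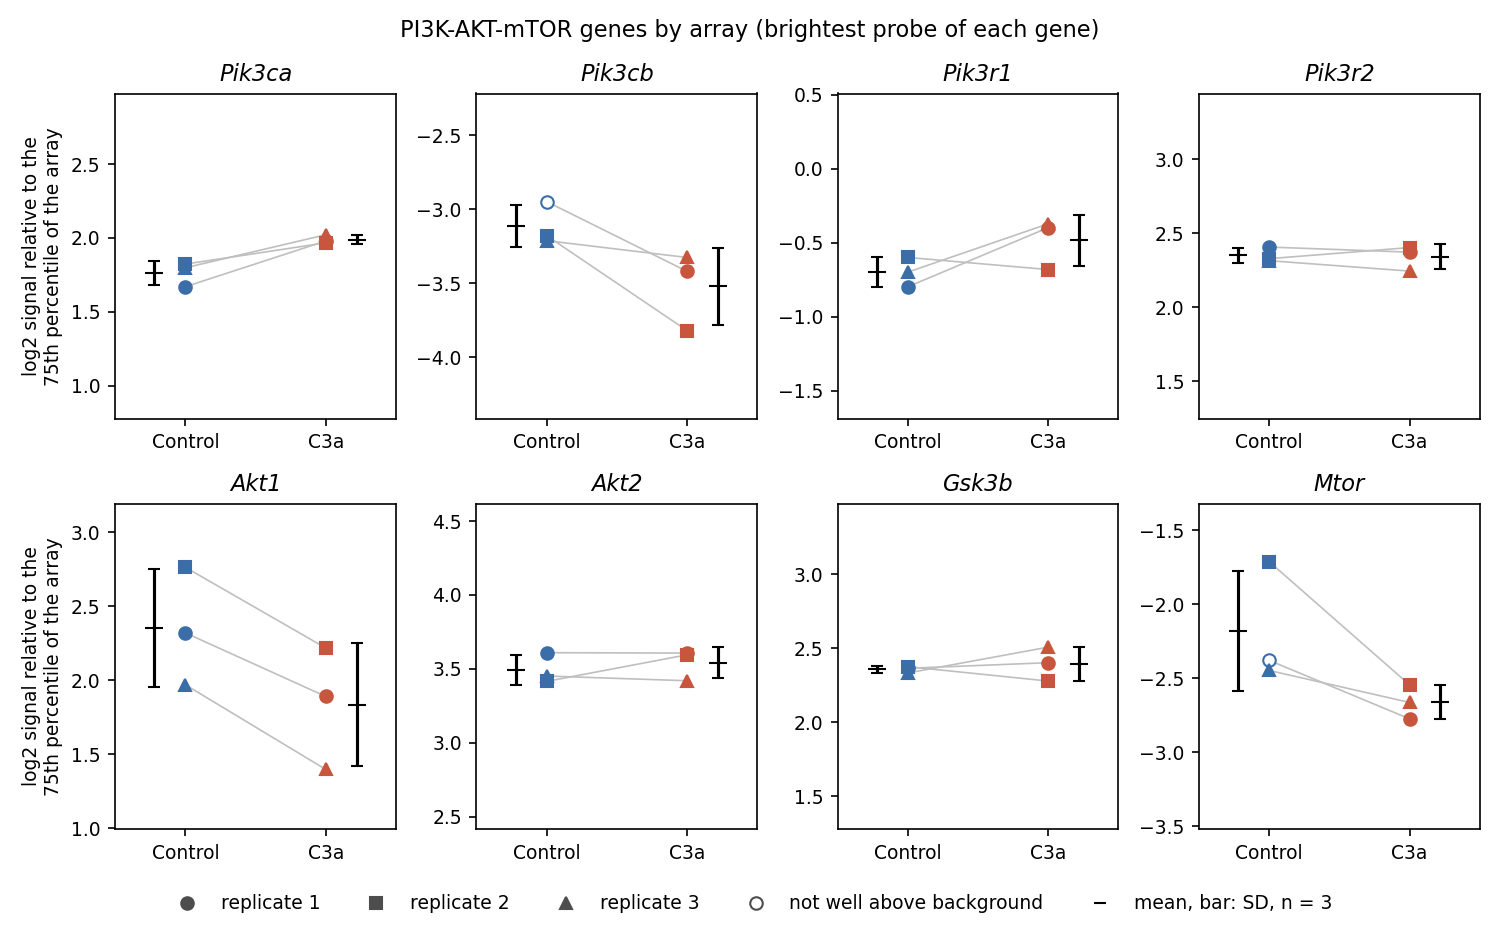
Log2 signal minus the 75th percentile on its array (y axis), for the brightest probe of each gene on the 3 Control and 3 C3a arrays (x axis). Each panel spans the same height, marker shape gives the replicate number, lines join equal numbers, open markers are not well above background, and bars are mean ± SD. The groups separate for Pik3ca, Pik3cb and Mtor, while Akt1 is lower with C3a in each of the 3 pairs but overlaps between groups.

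Among the catalytic subunits, Pik3ca, which encodes p110α, had signals of 1.67, 1.82 and 1.80 on the control arrays and 1.98, 1.97 and 2.02 on the C3a arrays. Every C3a array lay above every control, and the C3a arrays lay closer together, with an SD of 0.029 against 0.082 (n = 3 each). The log2 fold change was 0.23 (standard error 0.092, 95% interval 0.0081 to 0.44), or 1.17-fold (unadjusted p = 0.0439 and adjusted p = 0.746 by limma). With both remaining Pik3ca probes the picture was mixed. The second probe gave -0.067 (standard error 0.093) and the third gave 0.18 (standard error 0.12), and for both the groups overlapped. So 2 of 3 probes of one transcript lay above 0 and 1 below. With single arrays left out, the unadjusted p by limma of the brightest probe lay between 0.0347 and 0.161.

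Pik3cb, which encodes p110β, was measured near the background by its probe. Its signals were -2.95, -3.18 and -3.21 in the controls and -3.42, -3.82 and -3.33 with C3a. All C3a arrays lay below all controls, but the highest value, on control replicate 1, was not well above background, which leaves 2 of 3 control arrays that measured Pik3cb. The log2 fold change was -0.41 (standard error 0.15, 95% interval -0.77 to -0.045), with an unadjusted p = 0.0327 and an adjusted p = 0.746 by limma. Without control replicate 1 it was -0.33, without C3a replicate 2 it was -0.26, and with normexp, another way to correct the background, it was -0.12. Only 1 probe reads this gene, so no further probe bears on it.

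The regulatory subunit gene Pik3r1, for p85α, read -0.80, -0.60 and -0.70 in the controls and -0.40, -0.68 and -0.37 with C3a. C3a replicates 1 and 3 lay above the controls, and C3a replicate 2 lay among them. The log2 fold change was 0.21 (standard error 0.12, adjusted p = 0.746 by limma), and the remaining Pik3r1 probes gave -0.069 and 0.29, again on both sides of 0. The brightest probe was designed on a different transcript model from these 2 probes. Pik3r2, for p85β, had the smallest SD of the 8 over the 6 arrays (0.062), from 2.31 to 2.41 in the controls and from 2.24 to 2.40 with C3a. Its log2 fold change was -0.0099 (95% interval -0.23 to 0.21), which is 0.852-fold to 1.16-fold, so a larger change of this probe lies outside the interval at this scaling.

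Akt1 had the largest difference of the 8 and also the largest spread. Its signals were 2.32, 2.76 and 1.97 in the controls and 1.89, 2.22 and 1.40 with C3a. The groups overlapped, since C3a replicate 2 lay above control replicate 3. Within equal replicate numbers, however, C3a minus control was -0.43, -0.55 and -0.57, lower in 3 of 3 pairs. This pairing comes from the values and not from the labels. Pik3ca was higher in 3 of 3 pairs, and Pik3cb and Mtor lower in 3 of 3. The groups of these genes did not overlap, so any pairing would give them one sign. How many of all genes kept one sign was not counted, and nothing is read from these counts of pairs. The log2 fold change of Akt1 was -0.52 (standard error 0.26, 95% interval -1.13 to 0.10), or 1.43-fold lower, with an unadjusted p = 0.0895 and an adjusted p = 0.746 by limma. With the replicate number as a block, which removes what equal numbers share, the unadjusted p by limma was 0.00168 and the adjusted p 0.221. In that fit the unadjusted p by limma was 0.0510 for Pik3ca, 0.0211 for Pik3cb and 0.0163 for Mtor. Of all genes tested, 11.8% fell under an unadjusted 0.05 in it. For Akt1, leaving out control replicate 2 gave -0.31 and leaving out C3a replicate 3 gave -0.30. Leaving out control replicate 3 or C3a replicate 2 gave -0.71.

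Akt2, the isoform tied to glucose metabolism, read 3.61, 3.42 and 3.45 in the controls and 3.61, 3.60 and 3.42 with C3a by its brightest probe. The ranges of both groups nearly coincide, and the log2 fold change was 0.048 (standard error 0.11, 95% interval -0.20 to 0.30). A much dimmer Akt2 probe, designed on another transcript model, read -2.56, -1.43 and -2.57 in the controls and -2.62, -2.36 and -3.44 with C3a. It gave -0.62 (standard error 0.38, adjusted p = 0.746 by limma), with control replicate 2 high and C3a replicate 3 low, and -0.24 without control replicate 2. On control replicate 1 this probe was not well above background. The probes of Akt2 thus differ in sign.

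Gsk3b, whose protein is a target that AKT switches off, has 4 probes. The brightest read 2.36, 2.37 and 2.33 in the controls and 2.40, 2.28 and 2.51 with C3a, with the controls inside the range of the C3a arrays. Its log2 fold change was 0.038 (standard error 0.098), and the remaining 3 probes gave 0.098, -0.16 and 0.020, all with overlapping groups. The probe at -0.16 was high on control replicate 2, and without that array it gave 0.0029. Over all 4 probes the adjusted p by limma lay between 0.768 and 0.953.

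Mtor read -2.38, -1.71 and -2.45 in the controls and -2.77, -2.54 and -2.66 with C3a. All C3a arrays lay below all controls, with control replicate 2 far above the rest and control replicate 1 not well above background. The log2 fold change was -0.48 (standard error 0.20, 95% interval -0.96 to -0.0066), or 1.4-fold lower, with an unadjusted p = 0.0476 and an adjusted p = 0.746 by limma. It was -0.25 without control replicate 2 and -0.23 with normexp. Over the 16 probes of the 8 genes, control replicate 2 was the highest array for 5 and C3a replicate 3 for 5. Over all probes tested control replicate 2 was the highest for 18.6%. That share was not counted for C3a replicate 3, and nothing is read from either count.

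**Figure D2:**
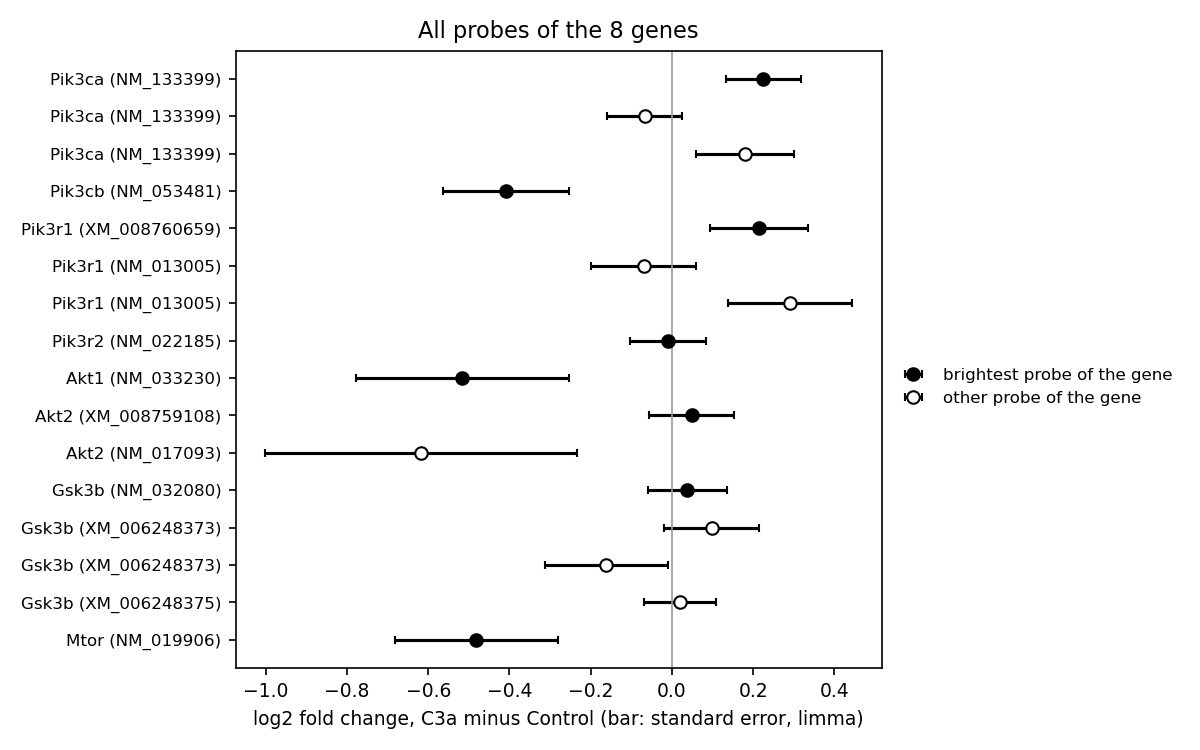
Log2 fold change, C3a minus Control (x axis), of all 16 probes of the 8 genes with the transcript each was designed on (y axis). Points are limma estimates, bars are standard errors, and filled points are the brightest probe of a gene. Probes of Pik3ca, Pik3r1, Akt2 and Gsk3b lie on both sides of 0, from -0.62 to 0.29.

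Isoform balance was compared within an array, as the difference between the log2 signals of a pair of probes, in which the scaling of the array cancels. Only its movement between groups has a meaning, not its size, and 3 pairs were compared by a two-sided exact permutation test, whose smallest p with 3 against 3 arrays is 0.1. Pik3ca minus Pik3cb was 4.62, 5.00 and 5.01 in the controls and 5.40, 5.79 and 5.35 with C3a. All C3a arrays lay above all controls, and the balance differed by 0.63 on the log2 scale, or 1.55-fold, towards Pik3ca (exact p = 0.1, 0.3 adjusted over the 3 pairs). It was higher with C3a in 3 of 3 pairs of equal number (two-sided exact sign permutation p = 0.25, the smallest that 3 pairs allow). The shift was 0.31 with normexp, where the groups gave an exact p = 0.4, and 0.50 without control replicate 1, on which Pik3cb was not well above background, or without C3a replicate 2. A within-array shift says that the probes moved unequally and not which of them moved. The pairs are made of members chosen with results known. The separation of this pair follows from the Pik3ca and Pik3cb values given above, so its p-values add no further support.

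Akt1 minus Akt2 was -1.29, -0.65 and -1.48 in the controls and -1.72, -1.38 and -2.02 with C3a. The groups overlapped, and the mean differed by -0.56 (exact p = 0.2, 0.3 adjusted), lower in 3 of 3 pairs of equal number (exact sign permutation p = 0.25). It was -0.32 without control replicate 2 and -0.23 with the median over the probes of each gene. Pik3r1 minus Pik3r2 was -3.20, -2.93 and -3.01 in the controls and -2.77, -3.08 and -2.61 with C3a, a difference of 0.22 (exact p = 0.3, 0.3 adjusted), higher in 2 of 3 pairs. For this pair the shift was 0.15 with control replicate 1 left out, 0.12 with C3a replicate 3 left out and 0.36 with C3a replicate 2 left out.

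**Figure D3:**
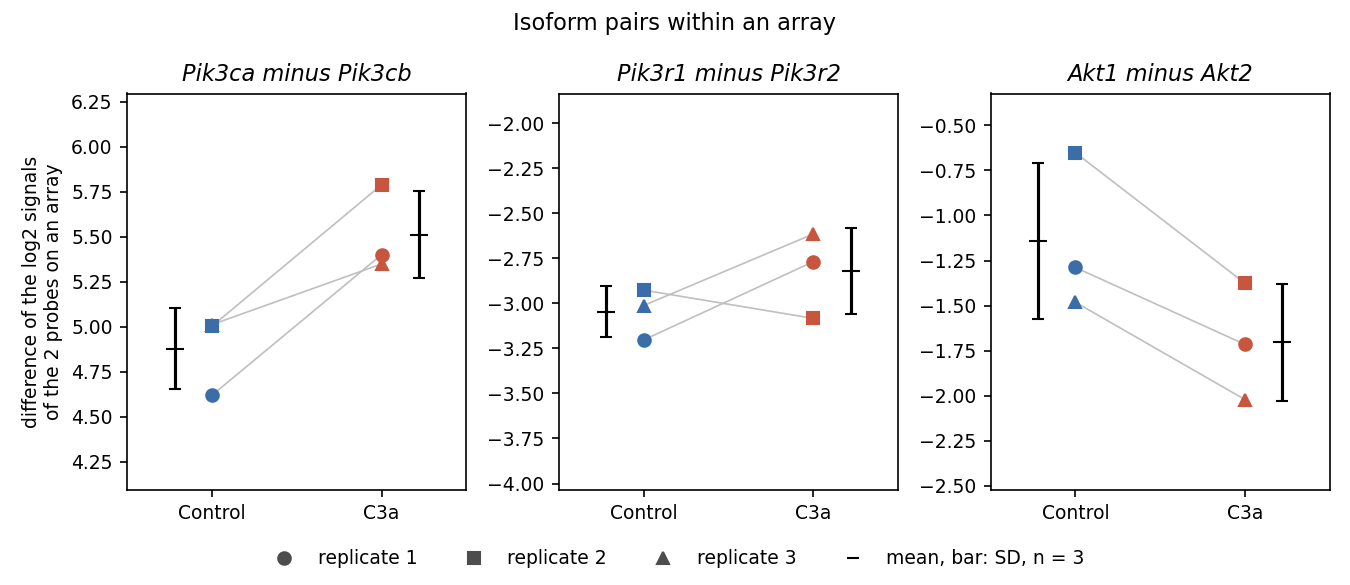
Difference between the log2 signals of both probes of an isoform pair on the same array (y axis) for the 3 Control and 3 C3a arrays (x axis). Each panel spans the same height, marker shape and lines give the replicate number, and bars are mean ± SD. The Pik3ca minus Pik3cb difference is at least 5.35 on the C3a arrays and at most 5.01 on the controls, while both remaining pairs overlap between groups.

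The scaling of the arrays sets the sign for several members. Without normalization between arrays the median of all probes tested was -0.28, and with scaling to 7 spike-in probes it was -0.40, against 0.048 with the 75th percentile. Under these 2 settings all 8 members lay below 0, at -0.099 and -0.23 for Pik3ca and -0.84 and -0.97 for Akt1. Relative to the median of all probes Pik3ca lay at 0.18 and Akt1 at -0.56 under both, the same as with the 75th percentile. These scalings differ only by a constant per array, so this agreement is fixed by arithmetic and adds no support. Akt1, Pik3cb and Mtor lay below 0 under every scaling and background correction tried, while the sign of Pik3ca, Pik3r1, Akt2 and Gsk3b turned, and Pik3r2 turned when single arrays were left out.

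**Figure D4:**
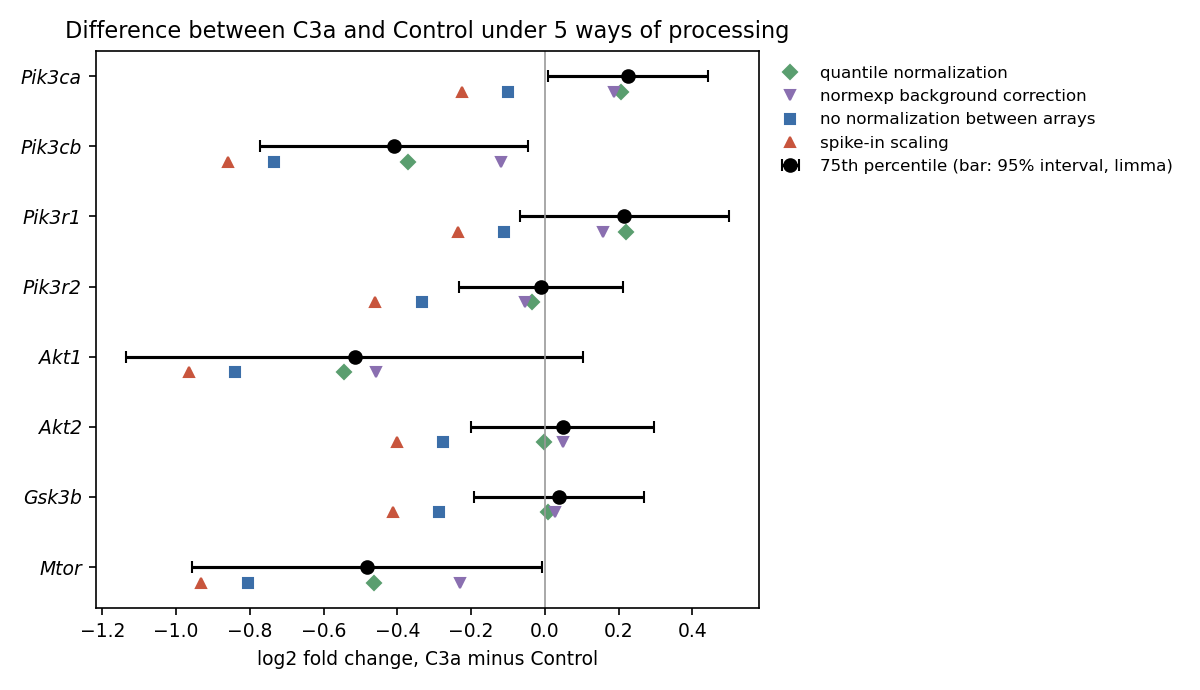
Log2 fold change, C3a minus Control (x axis), of the 8 genes (y axis) with the 75th percentile scaling and its 95% interval by limma, and with 4 other ways of processing. Akt1, Pik3cb and Mtor lie below 0 throughout, from -0.12 to -0.97, and Pik3ca lies at -0.23 to 0.23.

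The rest of the pathway was read from a list of 60 genes written from general knowledge, of which 55 have a named probe and 49 were tested. By limma 0 of the 49 passed an adjusted p of 0.05 in either direction (0.0% of all genes tested). At an unadjusted p under 0.05 by limma there was 1 higher and 0 lower, where 2.89% of all genes tested were higher and 2.46% lower. With the replicate block these counts were 5 and 3, where 11.8% of all genes tested were named in either direction. The median difference was 0.077 against 0.036 over all genes, with 34 above 0 and 15 below, where 60.5% of all genes tested lay above 0. By role, those above 0 were 4 of 5 receptors and adaptors, 3 of 5 other PI3K subunits, 4 of 5 phosphatases and inhibitors, 3 of 3 in the AKT layer, 4 of 5 mTOR complex subunits, 3 of 6 regulators upstream of mTORC1, 7 of 8 mTORC1 outputs, 2 of 3 FOXO factors and 4 of 9 FOXO targets. The groups did not overlap for 8 genes with C3a above and 5 with C3a below (13.0% of all genes tested). The gene under 0.05 was Eif4ebp2, a repressor of translation that mTORC1 inactivates, at 1.27, 1.27 and 1.33 in the controls and 1.55, 1.52 and 1.65 with C3a. All C3a arrays lay above all controls, and its log2 fold change was 0.28 (standard error 0.091, unadjusted p = 0.0174, adjusted p = 0.746 by limma), but -0.045 without normalization and -0.17 with spike-in scaling.

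Among genes well above background on all arrays, the largest differences in 7 roles were as follows, beside Eif4ebp2 among the outputs of mTORC1. For receptors and adaptors it was 0.14 for Igf1r, the IGF-1 receptor, and for the other PI3K subunits -0.20 for Pik3c3, the class III kinase of autophagy. For the AKT layer it was 0.18 for Pdpk1, the kinase that activates AKT. Pdpk1 lay above all controls on every C3a array, and Pik3c3 below. Igf1r, Pdpk1 and Foxo3 all turned below 0 without normalization and with spike-in scaling. Among subunits of the mTOR complexes the value was -0.37 for Akt1s1, an inhibitor of mTORC1, and among regulators upstream -0.29 for Sesn2, a stress-induced inhibitor. Leaving out C3a replicate 3 gave -0.16 for Akt1s1 and leaving out C3a replicate 2 gave -0.65, and Sesn2 was at -0.18 without control replicate 2 and -0.19 without C3a replicate 1. Foxo3, a transcription factor that AKT keeps out of the nucleus, gave 0.15, but 0.040 without C3a replicate 3 and 0.27 without C3a replicate 2. Igf1r was at 0.065 without control replicate 2. Ccng2, a FOXO target, gave -0.46, at -0.42, 0.48 and -0.43 in the controls and -0.58, -0.46 and -0.71 with C3a. For Ccng2 every C3a array lay below every control, as for Mtor, and control replicate 2 was high, as for Akt1 and Mtor. Without control replicate 2 the value for Ccng2 was -0.16. Adjusted p by limma was between 0.746 and 0.767 for these genes. Pik3cg and Inpp5d, which encode PI3Kγ and SHIP1 and are best known from leukocytes, were not well above background on any array. Of the other PI3K subunits, Pik3r5 was well above background on every array. Pik3cd was so on 2 control arrays and 1 C3a array, and Pik3r6 on 1 array of each group.

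**Figure D5:**
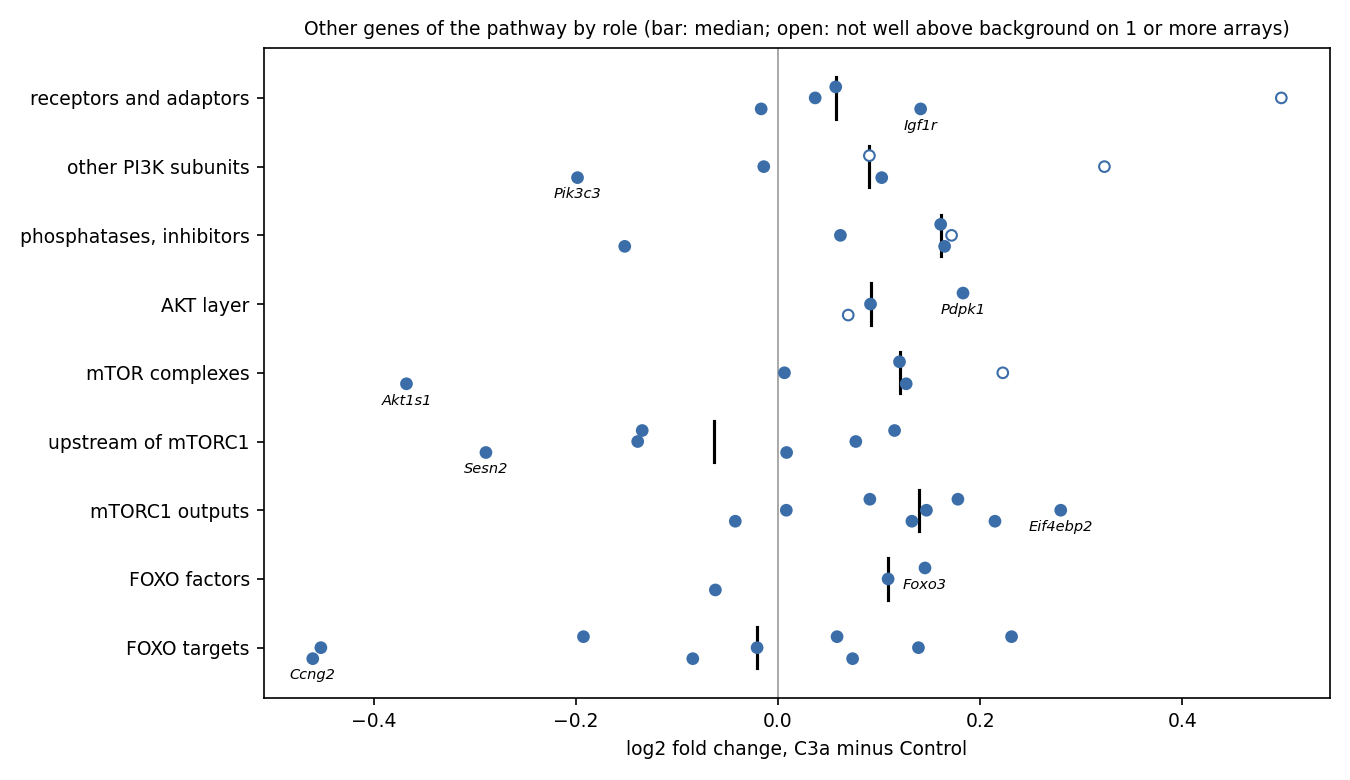
Log2 fold change, C3a minus Control (x axis), of the 49 other pathway genes tested, by role (y axis). Points are genes, black bars are the median of a role, open points were not well above background on 1 or more arrays, and labels mark the genes named in the text. Values run from -0.46 for Ccng2 to 0.50 for Irs1, which was not well above background on every array, and most lie within 0.3 of 0.

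The gene most like each member was the one of 10390 whose centred values over the 6 arrays had the smallest root mean square difference from it. It was Spata1 for Pik3ca (0.025 on the log2 scale), Mlph for Pik3cb (0.078), Gtse1 for Pik3r1 (0.042) and Hirip3 for Pik3r2 (0.013). It was Dock1 for Akt1 (0.038, beside an SD of 0.46 for Akt1 itself over the 6 arrays), Ubfd1 for Akt2 (0.0086), Cilk1 for Gsk3b (0.017) and Cap1 for Mtor (0.051, beside an SD of 0.38). With 6 arrays and this many genes, close matches are found for any profile, and nothing is read from them about function.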

How the data were processed

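Gene expression was measured in 3 control and 3 C3a samples of NRVCs, grouped by sample title. Deposited per array was a scanner table from Agilent Feature Extraction 11.5.1.1, the program in the submitters' processing notes, with the processed intensity of each spot, which is corrected for background and not normalised between arrays. A second deposited table holds log2 values of the authors, over 36638 probes. These matched the scanner values minus each array's 75th percentile to a median of 0.0059 or less, so its scale is known and it is not centred.

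Control and outlier spots were left out, spots of a probe were averaged, and log2 intensity was taken minus the 75th percentile of the array. Kept were the 23438 of 45598 probes well above background (at least 50% of spots) on all arrays of a group (17519 by the controls, 23425 by C3a). Accessions, without versions, named 21109 probes (46.3%) through the GRCr8 RefSeq gene table, as 16581 symbols. A gene was read by its brightest probe over all arrays. The test of C3a against control was limma 3.58.1 under R 4.3.3 (two-sided, Benjamini-Hochberg over all kept probes), without covariates. Isoform pairs used exact permutation tests (scipy 1.17.1).

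The members and gene lists were chosen with earlier results of these data known. Named are all members, pathway genes with an unadjusted p under 0.05, the largest difference in each role among genes well above background on all 6 arrays, and the gene most like each member. One result of this rule is not reported here. The alternatives were quantile normalization, none, the percentile over detected probes, scaling to 7 spike-in probes, normexp (offset 50, on the median spot signal), the authors' table, other filters, a variance trend, the replicate block, each array left out, the methods' t-test and the median over probes. Samples of equal replicate number deviated together (r of 0.28, 0.32 and 0.31, against -0.26 to -0.093 for unequal numbers), a pairing that comes from these values and not from the labels. Values were centred within each group first, so the r of an array with the arrays of the other group must nearly balance around 0. The negative r thus largely follow from the positive ones by arithmetic and are no separate support for the pairing. In simulated data for this comparison (23438 probes), a log2 change of 0.25 was called for 0 of 50 probes, of 0.5 for 4, of 1 for 29 and of 2 for 41. Among the unchanged probes 3 were called. The noise was normal and independent between arrays, and changes of all sizes were planted together. Large planted changes ease the adjusted threshold for small ones, and deviations shared by equal replicate numbers were not simulated. These counts are therefore not detection rates of this experiment. The number of arrays limits the precision.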

Additional observations from a re-analysis of the deposited data

How the results depend on the processing

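No member and no gene of the wider list passed an adjusted p of 0.05 by limma in any alternative run, with the smallest adjusted p at 0.221 for Akt1 with the replicate block, which changed no call. Akt1, Pik3cb, Mtor and the 3 isoform pairs kept their direction in all alternatives run for them. Pik3cb and Mtor have no value among probes well above background on all 6 arrays. At an unadjusted p under 0.05 the count of members, 3 in the report, was 0 with normexp and without a filter, 1 with quantile normalization and by the methods' t-test, and 3 with the replicate block, all lower. At an unadjusted p under 0.05, the counts over all probes were 780 higher and 587 lower in the report. They were 41 and 2558 without normalization, and 9 and 1728 with spike-in scaling. With normexp they were 635 and 349, with quantile normalization 758 and 560, and without a filter 357 and 677 of 45572 probes. With the replicate block they were 1815 and 1371, and by the methods' t-test 748 and 362. At an adjusted p under 0.05 by limma, 4 probes were lower without normalization. With spike-in scaling 1 probe was higher and 15 were lower at that adjusted p. Without normalization and with spike-in scaling, in this order, the log2 fold change was -0.099 and -0.23 for Pik3ca, -0.11 and -0.24 for Pik3r1, -0.28 and -0.40 for Akt2, -0.29 and -0.41 for Gsk3b, -0.045 and -0.17 for Eif4ebp2, -0.18 and -0.31 for Igf1r, -0.14 and -0.27 for Pdpk1, -0.18 and -0.30 for Foxo3, and -0.25 and -0.37 for the median of the wider list. These settings lower all probes (medians -0.28 and -0.40). Akt2 also gave -0.0038 with quantile normalization and -0.28 as the median over its probes. Leaving out each array gave -0.042 to 0.038 for Pik3r2, -0.017 to 0.097 for Gsk3b, 0.18 to 0.25 for Pik3ca, 0.16 to 0.31 for Pik3r1, 0.010 to 0.11 for Akt2, -0.71 to -0.30 for Akt1, -0.51 to -0.26 for Pik3cb and -0.62 to -0.25 for Mtor. For the pairs it gave 0.50 to 0.72 (Pik3ca minus Pik3cb), 0.12 to 0.36 (Pik3r1 minus Pik3r2) and -0.73 to -0.32 (Akt1 minus Akt2).

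In the wider list, the counts at an unadjusted p under 0.05, 1 higher and 0 lower, were 1 and 1 with quantile normalization, normexp and the filter on all 6 arrays, 0 and 5 without normalization, 0 and 4 with spike-in scaling, and 0 and 0 without a filter. They were 2 and 2 with a variance trend, 5 and 3 with the replicate block, and 3 and 1 by the methods' t-test. Leaving out each array gave 1 to 2 higher and 0 to 3 lower. The counts over all probes in most of these settings stand beside those of the members above. Over all probes they were 695 higher and 808 lower with a variance trend. With the filter on all 6 arrays they were 366 and 645 of 17506 probes. With single arrays left out they ran from 439 to 1256 higher and from 272 to 882 lower. The cause of the differences between settings was not tested. Pik3cb and Mtor, not well above background on control replicate 1, were at -0.12 and -0.23 with normexp.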
